A study of Ovis aries with 6 samples.

Results

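The lysosomal genes described here are the subunits of the vacuolar proton pump, the cathepsins, the lysosome-associated membrane proteins (LAMPs) and 5 further proteins of the lysosomal lumen. They were chosen by gene name, as rows whose symbol began with ATP6V0 or ATP6V1, named a cathepsin (CTS), or was LAMP1, LAMP2, LAMP3, LIPA, GAA, HEXA, PSAP or LGMN. This gave 42 of the 24390 genes in the table, of which 22 were pump subunits (9 of the V0 sector and 13 of the V1 sector), 12 cathepsins and 3 LAMPs. The same rule named SCARB2, CST3 and CSTB, which are not analysed here. The samples were whole pieces of perirenal fat from pure bred Merino sheep, all wild type and untreated per the labels, with 1 RNA-seq library per animal and 3 animals per stage. The lambs stayed with their ewes until weaning; the labels put their age at 89 days, at 80 days after birth and at 12 weeks, and the growth protocol at 89 ± 7 days, and their sample titles end in VEH, which is not explained. The fetuses were collected at 132 ± 1 days of gestation (term is 150 days).

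Lysosomes are acidic compartments in which proteins, lipids and sugars are broken down. The vacuolar ATPase acidifies them: its V1 sector, on the cytosolic side, hydrolyses ATP, and its V0 sector carries protons through the membrane. Cathepsins are the lysosomal proteases that work at this low pH, most of them cysteine proteases made as inactive precursors. LAMP1 and LAMP2 are the most abundant proteins of the lysosomal membrane. In adipose tissue lysosomes take part in lipid breakdown and in the turnover of organelles, and the macrophages of the tissue are also rich in them.

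The lamb libraries held between 15907128 and 17263780 counts and the fetal libraries between 17535892 and 19150428. Transcripts of the mitochondrial genome took 7.37 to 8.29% of the counts in lambs and 27.5 to 40.7% in fetuses, and levels are given as CPM, counts scaled to a common library size after TMM adjustment, which sets the bulk of genes equal between libraries. The factors were 1.18, 1.21 and 1.16 for lamb libraries 1 to 3 and 0.875, 0.723 and 0.956 for fetal libraries 1 to 3. Differences are log2 values, lamb minus fetal, ± SE, with Benjamini-Hochberg adjusted p-values over all 13624 genes tested by edgeR's quasi-likelihood test, and a gene was called at an adjusted p below 0.05. Adipocyte transcripts were abundant at both stages, with FABP4, the adipocyte fatty acid binding protein, at 10928 ± 1875 CPM in lambs and 1532 ± 428 CPM in fetuses (SD, n = 3 each). Using unadjusted library totals shifted the all-gene median upward by 0.47, and every direction below is relative to the TMM scaling unless stated otherwise.

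The genes of the proton pump differed little between lambs and fetuses. Of the 22 subunit genes, 16 had enough counts to be tested, and 15 of these 16 differed by less than 1.5-fold, which 54.7% of all tested genes did. Only 2 pump genes were called higher in lambs (ATP6V0A1 and ATP6V1B2) and 2 lower (ATP6V0E2 and ATP6V1C1), while 12 did not pass. Over all tested genes 22.0% were called higher and 22.7% lower. The median log2 difference of the 16 was 0.10, against -0.01 for all genes. The 6 others had too few counts to be tested. With scaling by library totals 10 pump genes were called higher and 0 lower, and the pump median was 0.59 beside an all-gene median of 0.46.

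**Figure D1:**
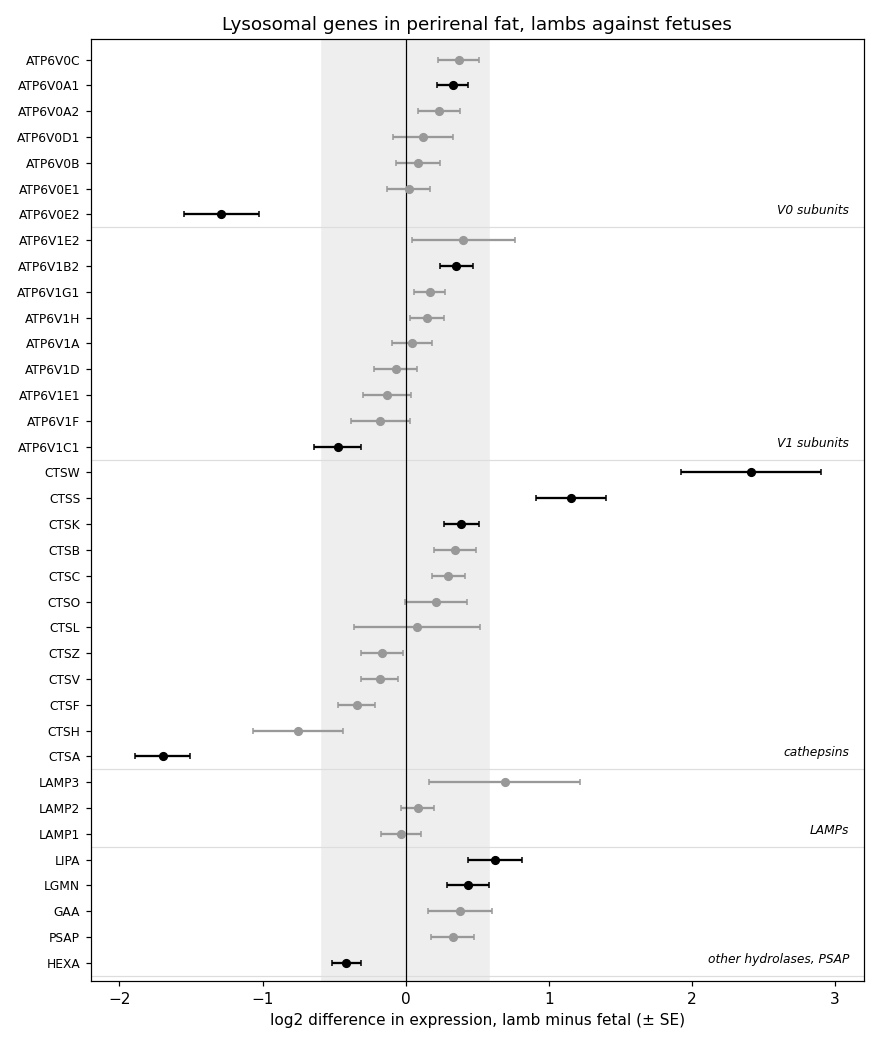
Log2 difference in expression, lamb minus fetal, with its SE, for the 36 tested lysosomal genes, grouped by class from top to bottom; black points passed the test and grey points did not, and the grey band marks differences under 1.5-fold. Among the pump subunits ATP6V0E2 is the point outside the band, whereas the cathepsins reach from CTSA at -1.70 to CTSW at 2.41.

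In the V0 sector, the membrane part of the pump, the median log2 difference over 7 tested genes was 0.12. The a subunit links the sectors and steers the pump to different membranes. Its isoform gene ATP6V0A1 (ENSOARG00000001896, chromosome 11, 42039565 to 42096102 on Oar v3.1) was at 63.0, 53.1 and 56.1 CPM in the lambs, against 46.6, 44.7 and 45.8 CPM in the fetuses. All lamb values lay above all fetal values, as was so for 28.2% of all tested genes. The log2 difference was 0.33 ± 0.11 (adjusted p = 0.0396), a rise of 1.26-fold. The call was lost without lamb library 1 (adjusted p = 0.0868) or 3 (0.0614), or without fetal library 1 (0.105), 2 (0.108) or 3 (0.112), with no filter beyond 1 count (0.0521) and with a filter of 5 CPM (0.0540).

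The other a isoform with a tested count, ATP6V0A2, had 27.5 ± 4.13 CPM in lambs and 23.4 ± 1.94 CPM in fetuses (log2 difference 0.23 ± 0.14, adjusted p = 0.224). TCIRG1, which encodes the a isoform of osteoclasts and macrophages and lies outside the naming rule, was at 38.3, 52.2 and 42.1 CPM in lambs and 32.5, 33.5 and 32.9 CPM in fetuses. The stages did not overlap and TCIRG1 rose by 0.42 ± 0.13 (adjusted p = 0.0355). That call was lost without lamb library 2 (adjusted p = 0.0702) or 3 (0.0505), or without fetal library 1 (0.106), 2 (0.0900) or 3 (0.103). The authors' mean RPKM is scaled by gene length, so levels can be compared between genes. By this measure ATP6V0A1 made up 45.0% of the summed a isoforms in lambs and 49.9% in fetuses. With lambs given first, TCIRG1 made up 41.1% and 33.9%, ATP6V0A2 13.6% and 14.8%, and ATP6V0A4 0.336% and 1.41%. These shares carry no replicate error, and the RPKM of ATP6V0A4 did not follow its counts. ATP6V0A1 and TCIRG1 also differed more by RPKM than by counts. Their log2 RPKM ratios, lamb over fetal and not TMM-adjusted, were 0.55 and 0.98, against count differences of 0.33 and 0.42. The counts thus show less change between these isoforms than the shares do.

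The e subunit is a small membrane protein of V0 with a pair of isoform genes, and they behaved differently. ATP6V0E2 (ENSOARG00000001047, chromosome 4, 112088014 to 112091049) was at 1.73, 2.08 and 1.65 CPM in lambs, against 3.59, 4.19 and 5.55 CPM in fetuses. Every lamb was below every fetus, which held for 29.5% of all tested genes. The log2 difference was -1.29 ± 0.26 (adjusted p = 0.00592), the largest among the tested pump genes, and ATP6V0E2 kept its call on leaving out any 1 library but not with scaling by library totals (-0.83, adjusted p = 0.0639). It rests on few reads, 33 to 40 per lamb library and 57 to 93 per fetal library, and it is named here after its values were seen. The common isoform ATP6V0E1 was at 22.3 ± 1.20 CPM in lambs and 22.1 ± 3.86 CPM in fetuses (log2 difference 0.02 ± 0.15, adjusted p = 0.921). By the authors' mean RPKM, ATP6V0E2 made up 10.7% of the e isoforms in lambs and 19.6% in fetuses.

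The remaining V0 genes did not pass the test. ATP6V0B, which encodes a proteolipid of the rotor ring and was the pump gene with the highest mean count, was at 106, 86.3 and 79.1 CPM in lambs and 81.1, 97.0 and 78.1 CPM in fetuses. Its stages overlapped (log2 difference 0.09 ± 0.15, adjusted p = 0.674). ATP6V0C encodes the other ring proteolipid and was at 8.94, 9.45 and 9.90 CPM in lambs, above its 6.99, 7.28 and 7.58 CPM in fetuses, with a log2 difference of 0.37 ± 0.14 (adjusted p = 0.0698). The table places ATP6V0C on a very short stretch of chromosome 24 (2001073 to 2001207), so its count may cover only part of the gene. ATP6V0D1, which encodes the stalk subunit d, was at 45.3 ± 12.3 CPM in lambs and 41.7 ± 7.02 CPM in fetuses (adjusted p = 0.670).

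In the V1 sector, which hydrolyses ATP, the median log2 difference over 9 tested genes was 0.04 and all 9 differed by less than 1.5-fold. The catalytic subunit gene ATP6V1A was at 83.0, 64.4 and 62.8 CPM in lambs and 64.1, 74.4 and 65.3 CPM in fetuses, with overlapping stages (log2 difference 0.04 ± 0.14, adjusted p = 0.821). Its partner in the catalytic ring, ATP6V1B2 (ENSOARG00000010681, chromosome 2, 45338025 to 45361588), was at 80.7, 72.5 and 68.7 CPM in lambs, against 59.4, 61.5 and 52.6 CPM in fetuses. The stages did not overlap, and ATP6V1B2 rose by 0.36 ± 0.12 (adjusted p = 0.0410), or 1.28-fold. Its call was lost without lamb library 1 (adjusted p = 0.0946) or 2 (0.0647), or without fetal library 1 (0.0967), 2 (0.0640) or 3 (0.155), and with a filter of 5 CPM (0.0567).

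ATP6V1C1 (ENSOARG00000016832, chromosome 9, 74036809 to 74068146) encodes the C subunit, which joins V1 to V0 and is released when the pump comes apart. It was at 38.4, 30.7 and 42.9 CPM in lambs, against 50.3, 60.5 and 44.9 CPM in fetuses. No lamb reached the lowest fetus, and the log2 difference was -0.47 ± 0.16 (adjusted p = 0.0486). The call was lost without lamb library 1 (adjusted p = 0.0931) or 2 (0.122), or without fetal library 1 (0.0943) or 2 (0.150), with DESeq2 size factors (0.0520) and with no filter beyond 1 count (0.0651), and with scaling by library totals the difference was 0.02. The other V1 genes, ATP6V1D, ATP6V1E1, ATP6V1E2, ATP6V1F, ATP6V1G1 and ATP6V1H, had log2 differences between -0.18 (ATP6V1F) and 0.40 (ATP6V1E2), none called and each with overlapping stages. ATP6V1H, the subunit that regulates coupling to V0, was at 49.5 ± 6.38 CPM in lambs and 44.6 ± 1.44 CPM in fetuses.

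The 6 pump genes below the count filter were ATP6V0A4, ATP6V0D2, ATP6V1B1, ATP6V1C2, ATP6V1G2 and ATP6V1G3. Several of them are isoforms of acid-secreting kidney cells, and ATP6V1G2 is known from neurons. ATP6V1G3 had 0 counts in every library, and ATP6V0D2 had 10 counts over the lamb libraries and 6 over the fetal libraries. ATP6V0A4 stood apart, with 1, 0 and 0 counts in lambs, against 26, 4 and 8 counts in fetuses. Scaled to library size, its ratio of lambs to fetuses was 0.0208, with a 95% exact interval of 0.000514 to 0.123 that covers counting error only. Of the listed markers of urothelium, the lining of the urinary tract, all 9 tested were called lower in lambs, against 22.7% of all tested genes. The urothelium sums were 0.791, 0.934 and 0.700 CPM in lambs and 189, 75.1 and 54.8 CPM in fetuses. Of the kidney markers 3 of 13 were tested and 1 was lower (SLC4A1, also a red cell gene), the sums ran from 2.70 to 3.66 CPM in lambs and from 6.03 to 16.3 CPM in fetuses, and AQP2 and SLC34A1 were at 0 everywhere. The part of such cells in the ATP6V0A4 counts was not tested. The authors' RPKM for ATP6V0A4, 0.222 in lambs and 0.575 in fetuses, and for ATP6V1G3, 0.377 and 0.198, do not follow these counts.

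The cathepsins differed more among themselves than the pump genes did. All 12 were tested, and 3 were called higher in lambs (CTSW, CTSS and CTSK), 1 lower (CTSA), and 8 did not pass. Among all tested genes 44.7% were called, 22.0% higher and 22.7% lower. The median log2 difference of the cathepsins was 0.15, close to the 0.10 of the pump genes, but they ran from -1.70 to 2.41. Less than 1.5-fold was the difference of 8 of 12 cathepsins and of 54.7% of all tested genes. CTSA, CTSS and CTSW kept their call and direction under all 14 alternative settings, including each scaling and each omission of a library. With scaling by library totals 5 cathepsins were called higher and 1 lower.

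CTSA (ENSOARG00000006985, chromosome 13, 74188507 to 74194310) encodes cathepsin A, a serine carboxypeptidase also called protective protein, because it binds and stabilises the lysosomal enzymes beta-galactosidase and neuraminidase. It was at 41.6, 39.7 and 51.2 CPM in lambs, against 136, 179 and 115 CPM in fetuses. The highest lamb was below the lowest fetus by a wide margin. The log2 difference was -1.70 ± 0.19 (adjusted p = 4.65e-04), so that CTSA fell to 0.308 of its fetal level in lambs. GLB1, the gene of beta-galactosidase (chromosome 19, 7255507 to 7331006), named for this partnership, was at 97.4, 91.0 and 103 CPM in lambs, against 276, 258 and 348 CPM in fetuses, and fell by 1.60 ± 0.15 (adjusted p = 2.14e-04). NEU1, the gene of the neuraminidase, was at 11.2, 11.2 and 10.6 CPM in lambs and 11.3, 10.3 and 11.0 CPM in fetuses, with overlapping stages (log2 difference 0.02 ± 0.13, adjusted p = 0.915).

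CTSS (ENSOARG00000020861, chromosome 1, 99623159 to 99650475) encodes cathepsin S, which antigen-presenting cells use to process the invariant chain of MHC class II. It was at 110, 113 and 72.1 CPM in lambs, against 51.1, 31.0 and 50.4 CPM in fetuses. All lambs were above all fetuses, and CTSS rose by 1.16 ± 0.25 (adjusted p = 0.00699), or 2.23-fold. Of 22 listed macrophage markers 20 were tested, of which 11 rose, 0 fell and 9 were not called (median 1.08). None of the markers was at 0 everywhere, and 22.0% of all tested genes were called higher. The marker sums were 1810, 1682 and 1421 CPM in lambs and 391, 268 and 527 CPM in fetuses. MRC1 alone made up 1144, 1016 and 819 CPM of the lamb sums and 61.9, 41.9 and 69.1 CPM of the fetal sums. CSF1R (0.17 ± 0.28), VSIG4 (0.30 ± 0.37) and CYBB (-0.26 ± 0.27) were among the markers not called. MRC1, a mannose receptor of resident macrophages, rose by 4.11 ± 0.25, CD14 by 2.46 ± 0.19 and EMR1 by 2.08 ± 0.56, the EMR1 call being lost without lamb library 1 (adjusted p = 0.0510) or 2 (0.0590) or fetal library 2 (0.0553). In such bulk tissue fewer cells of a type and less RNA per cell cannot be told apart, and the part of macrophages in the CTSS difference was not tested.

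CTSW (ENSOARG00000018487, chromosome 21, 43302588 to 43305776) encodes cathepsin W, a protease of natural killer and cytotoxic T cells. It was at 12.6, 5.66 and 4.60 CPM in lambs, against 1.97, 1.54 and 0.776 CPM in fetuses, without overlap. CTSW rose by 2.41 ± 0.49 (adjusted p = 0.00588), or 5.33-fold, and by 1.84 without lamb library 1. T and NK cell markers gave sums of 36.3, 20.8 and 7.55 CPM in lambs and 13.4, 8.17 and 8.36 CPM in fetuses, so these sums overlapped between the stages. Of 10 such markers 7 were tested, 2 were higher (PRF1 by 3.45 ± 0.74 and CD2 by 1.61 ± 0.46) and 0 lower. None of the 10 was at 0 everywhere, and 22.0% of all tested genes were called higher. The CD2 call was lost without lamb library 1 (adjusted p = 0.0656) or 2 (0.0737) or fetal library 2 (0.0648). PRF1, the perforin of cytotoxic cells, was at 5.83, 2.39 and 1.10 CPM in lambs and 0.359, 0.368 and 0.119 CPM in fetuses. The part of these cells in the CTSW difference was not tested.

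CTSK (ENSOARG00000020869, chromosome 1, 99667716 to 99677407) encodes cathepsin K, a collagen-degrading protease of osteoclasts that fibroblasts also make. It is the next listed gene to CTSS, with 17.2 kb and no other row of the table between them. CTSK was at 121.7, 126 and 103 CPM in lambs, against 95.0, 87.8 and 85.1 CPM in fetuses, with no overlap, and rose by 0.39 ± 0.12 (adjusted p = 0.0353), or 1.31-fold. The call was lost on leaving out lamb library 1 (adjusted p = 0.0746), lamb library 2 (0.0862), fetal library 1 (0.0636), fetal library 2 (0.0942) or fetal library 3 (0.120). Of 11 fibroblast markers 5 rose, 1 fell and 5 were not called, while 44.7% of all tested genes were called. Among the markers DPT was at 3.50 ± 0.36, DCN at 1.25 ± 0.25, LUM at 1.00 ± 0.25 and MMP2 at -1.20 ± 0.22. Of the markers not called, COL1A1 (-0.84 ± 0.33), COL1A2 (-0.62 ± 0.32) and COL3A1 (-0.53 ± 0.26) lay lower in lambs. PDGFRA (0.42 ± 0.22) and PDPN (0.94 ± 0.38) lay higher. The LUM call was lost on omitting fetal library 3 (adjusted p = 0.0512). Their sums were 8244 to 9740 CPM in lambs and 7601 to 15414 CPM in fetuses, and the part of fibroblasts in the CTSK difference was not tested.

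**Figure D2:**
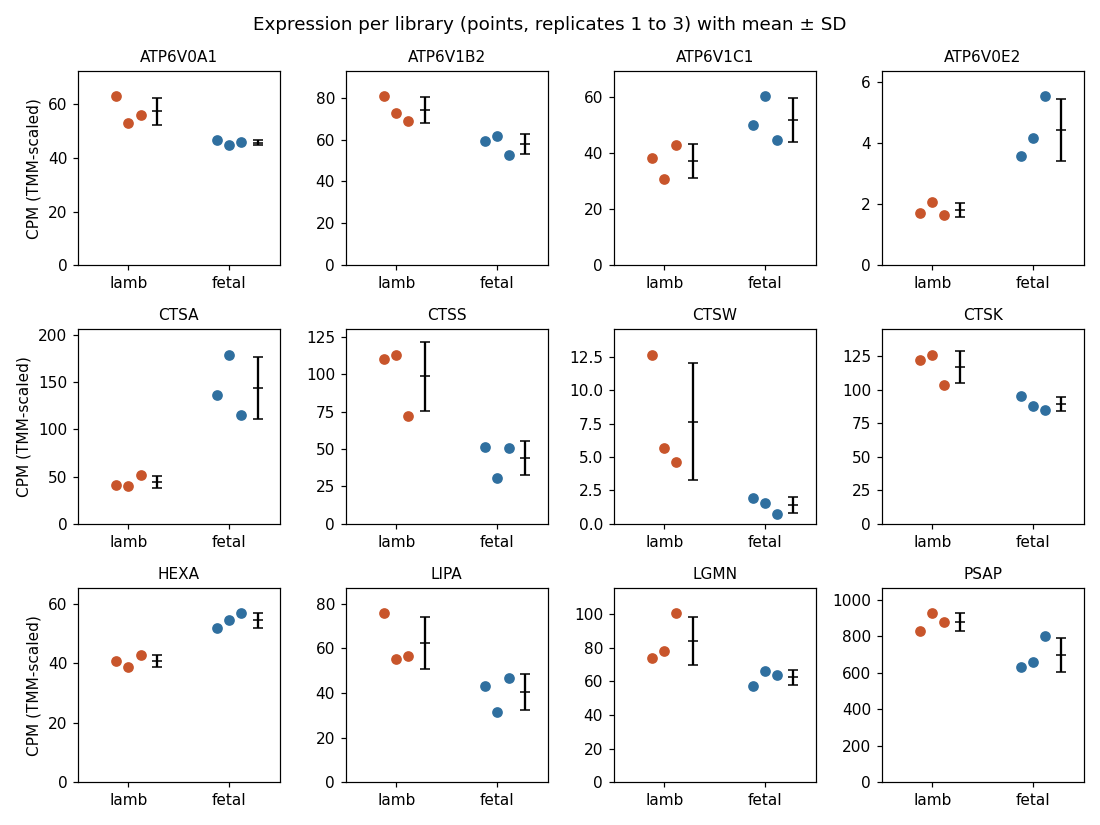
Expression of 12 lysosomal genes in each library, in TMM-scaled CPM from 0, with lamb libraries (orange) left of fetal libraries (blue), points for replicates 1 to 3 and bars for the mean ± SD (n = 3 each). CTSA, at 39.7 to 51.2 CPM in lambs and 115 to 179 CPM in fetuses, has well separated stages, and CTSW shows a wide spread among the lambs, at 4.60 to 12.6 CPM.

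The 8 other cathepsins did not pass. CTSB, the endopeptidase cathepsin B, was at 178, 189 and 214 CPM in lambs, above its 158, 129 and 171 CPM in fetuses, with a log2 difference of 0.35 ± 0.15 (adjusted p = 0.0912). CTSC, which activates the serine proteases of immune cells, likewise had no overlap, at 85.4 ± 6.86 CPM in lambs and 69.4 ± 4.15 CPM in fetuses (log2 difference 0.30 ± 0.11, adjusted p = 0.0656). CTSF, the cathepsin gene with the highest mean CPM, lay the other way, at 175, 152 and 145 CPM in lambs and 189, 218 and 191 CPM in fetuses. It did not overlap either (log2 difference -0.34 ± 0.13, adjusted p = 0.0643), and it passed without lamb library 1 (-0.42, adjusted p = 0.0441).

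CTSH, an aminopeptidase known for processing surfactant protein, depended on the fetal libraries. It was at 58.1, 51.9 and 67.9 CPM in lambs and 88.3, 152 and 59.4 CPM in fetuses, with fetal library 2 highest and fetal library 3 within the range of the lambs. Its log2 difference was -0.75 ± 0.31 (adjusted p = 0.0868), and it passed without fetal library 3 (-1.02, adjusted p = 0.0190). CTSZ, CTSV, CTSO and CTSL had log2 differences of -0.17, -0.18, 0.21 and 0.08, all with overlapping stages. CTSV and CTSL are close paralogs, 2596 kb apart on chromosome 2, and how reads matching both were counted is not stated. CTSV had 100.3 ± 10.8 CPM in lambs and 114 ± 9.73 CPM in fetuses, whereas CTSL had only 17 to 53 reads per library, so that neither level can be assigned with certainty.

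Set side by side, 4 of 16 tested pump genes and 4 of 12 tested cathepsins were called, with 44.7% of all tested genes called in either direction. Over 2-fold there was 1 called pump gene (ATP6V0E2) and there were 3 cathepsins (CTSA, CTSS and CTSW), that is 1 of 16 and 3 of 12; over all tested genes 22.9% were called at over 2-fold, close to the share of the cathepsins. The middle part of the pump differences, from the lower to the upper quartile, lay between -0.09 and 0.26, that of the cathepsins between -0.22 and 0.36, and that of all tested genes between -0.57 and 0.47. Pump genes summed to 672, 617 and 703 CPM in lambs and 612, 695 and 602 CPM in fetuses. Cathepsins summed to 976, 932 and 919 CPM in lambs and 1008, 1061 and 928 CPM in fetuses. Both sums overlapped between the stages. The ratio of the pump sum to the cathepsin sum was 0.689, 0.662 and 0.765 in lambs and 0.608, 0.655 and 0.649 in fetuses. The lowest lamb lay just above the highest fetus, but this ratio weights genes by their read counts and was not tested. CTSA alone gave 41.6, 39.7 and 51.2 CPM of the lamb cathepsin sums and 136, 179 and 115 CPM of the fetal sums. The separation of the ratio therefore cannot be read as a shift of the cathepsins as a class.

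**Figure D3:**
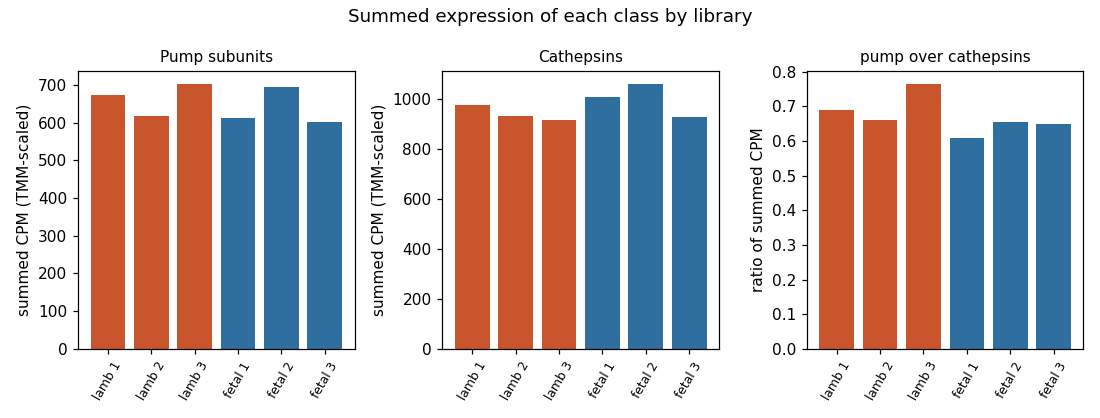
Summed TMM-scaled CPM of the 22 pump subunits and of the 12 cathepsins, and the ratio of these sums, in each lamb library (orange, left) and fetal library (blue, right), with bars from 0. The sums overlap between stages at 617 to 703 and 602 to 695 CPM for the pump and at 919 to 976 and 928 to 1061 CPM for the cathepsins.

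The spread among animals of a stage was alike for both classes in lambs and wider for the cathepsins in fetuses, a difference that was not tested. The median coefficient of variation was 14.0% in lambs and 10.1% in fetuses for the pump genes, and 13.8% in lambs and 16.0% in fetuses for the cathepsins. Pump genes tended to be highest in the same library, which was lamb library 3 for 11 of 16 in lambs and fetal library 2 for 11 of 16 in fetuses. Fetal library 2 also had the lowest TMM factor and the highest mitochondrial share, and the part of these in its pump levels was not tested. Among cathepsins the highest fetal library was number 1 for 6 of 12 and numbers 2 and 3 for 3 each.

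**Figure D4:**
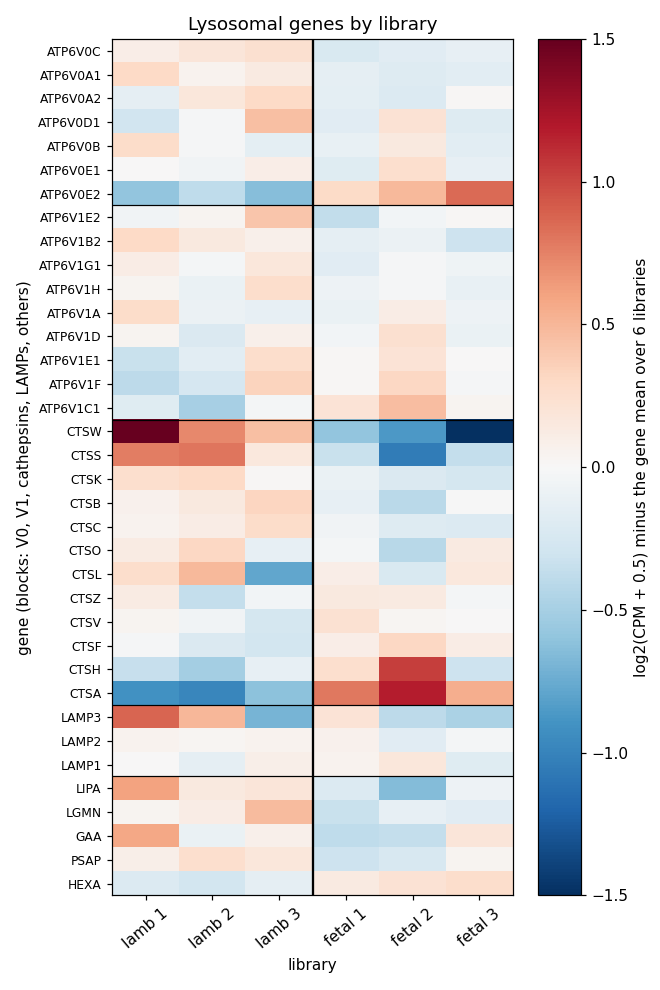
Level of each of the 36 tested genes in each library, as log2(CPM + 0.5) minus the mean of that gene over the 6 libraries, with lamb libraries left of the line and fetal libraries right of it and blocks for V0, V1, cathepsins, LAMPs and other genes; the colour scale ends at 1.5 in either direction. Colours near white fill most of the pump blocks, while CTSW, CTSS and CTSA differ by stage and CTSH is high in fetal library 2.

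The LAMP genes did not differ detectably. LAMP1 was at 246, 223 and 261 CPM in lambs and 254, 277 and 217 CPM in fetuses (log2 difference -0.03 ± 0.14, adjusted p = 0.858). LAMP2, on the X chromosome, was at 146, 144 and 147 CPM in lambs and 148, 126 and 138 CPM in fetuses (0.08 ± 0.11, adjusted p = 0.576). LAMP3, known from mature dendritic cells and lung, was low at 3.51, 2.59 and 0.850 CPM in lambs and 2.03, 1.18 and 1.07 CPM in fetuses, and its stages overlapped (0.69 ± 0.53, adjusted p = 0.321). With scaling by library totals LAMP1 and LAMP2 passed the test at 0.45 and 0.55, near the all-gene median of 0.46.

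Of the 5 further luminal proteins 2 were called higher, 1 lower and 2 not called, with 44.7% of all tested genes called. LIPA (ENSOARG00000015082, chromosome 22, 10697729 to 10736804) encodes lysosomal acid lipase, which splits cholesteryl esters and triacylglycerols. It was at 75.7, 55.0 and 56.5 CPM in lambs, against 43.0, 31.5 and 46.9 CPM in fetuses. The stages did not overlap and LIPA rose by 0.62 ± 0.19 (adjusted p = 0.0299), or 1.54-fold. The call was lost without lamb library 1 (adjusted p = 0.0846) or fetal library 1 (0.0612) or 2 (0.0844). NPC1 and NPC2, which export the cholesterol that this lipase releases, rose too, NPC1 by 1.65 ± 0.31 (adjusted p = 0.00442) and NPC2 by 0.52 ± 0.10 (adjusted p = 0.00497).

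LGMN (ENSOARG00000013162, chromosome 18, 56320394 to 56346416) encodes legumain, an asparaginyl endopeptidase that trims cathepsin precursors. It was at 73.8, 78.1 and 100.5 CPM in lambs, against 57.1, 66.1 and 63.8 CPM in fetuses, with no overlap, and rose by 0.43 ± 0.15 (adjusted p = 0.0447). Its call was lost without lamb library 2 (adjusted p = 0.0548) or 3 (log2 difference 0.29, 0.107), or without fetal library 1 (0.145), 2 (0.0731) or 3 (0.0971), and with no filter beyond 1 count (0.0513). HEXA (ENSOARG00000018930, chromosome 7, 18903379 to 18935045), the alpha subunit of beta-hexosaminidase, which degrades gangliosides, was at 40.8, 38.8 and 42.9 CPM in lambs, against 52.0, 54.7 and 56.9 CPM in fetuses. Lambs lay below fetuses throughout, and HEXA fell by 0.42 ± 0.10 (adjusted p = 0.0124). Omitting fetal library 3 ended the HEXA call (adjusted p = 0.0569), and with scaling by library totals HEXA was at 0.05.

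PSAP, the precursor of the saposins that help lysosomal enzymes reach sphingolipids, was at 827, 928 and 878 CPM in lambs and 632, 662 and 803 CPM in fetuses. The stages did not overlap, but the log2 difference of 0.33 ± 0.15 did not pass (adjusted p = 0.112). GAA, the acid glucosidase that degrades glycogen in lysosomes, was at 45.1, 28.1 and 31.7 CPM in lambs and 23.0, 23.4 and 34.1 CPM in fetuses, with overlap (0.38 ± 0.22, adjusted p = 0.202).

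By the authors' mean RPKM, the length-scaled level, PSAP ranked first among the 42 genes at both stages, at 377 in lambs and 221 in fetuses. ATP6V1G1 (185 in lambs and 115 in fetuses), LAMP1 (183 and 138) and CTSB (176 and 95.9) came next at both stages. CTSA ranked 24 in lambs and 9 in fetuses, CTSK 5 and 12, and LAMP2 9 and 14. RPKM is not TMM-adjusted, so these values order genes within a stage and are not compared between the stages. They carry no replicate error either, so neighbours in the order cannot be said to differ.

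Other genes that build or serve the lysosome gave mixed counts. Of 15 tested genes for pump assembly and accessory proteins 2 were higher, 3 lower and 10 not called (median -0.19). That stands beside 44.7% of all tested genes called, 22.0% higher and 22.7% lower. ATP6AP1, an accessory subunit of the V0 sector, was at 102, 101 and 116 CPM in lambs, against 304, 333 and 272 CPM in fetuses. It fell by 1.51 ± 0.13 (adjusted p = 1.66e-04), more than any tested pump subunit, and kept its call under all 14 alternative settings. The chloride and proton exchanger gene CLCN3 fell by 0.63 ± 0.10 and DMXL1, of a complex that helps assemble the pump, by 0.68 ± 0.19, the DMXL1 call being lost without fetal library 1 (adjusted p = 0.0565) and both calls with scaling by library totals. OSTM1, the partner of the lysosomal chloride exchanger CLCN7, rose by 1.53 ± 0.14 (adjusted p = 2.12e-04).

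Of 32 tested genes of other lysosomal hydrolases 7 were higher, 7 lower and 18 not called (median -0.08). Those shares lay close to the 22.0% higher and 22.7% lower of all tested genes. Among the hydrolases the largest increases were those of PLBD2 (1.24 ± 0.09), the iduronidase gene IDUA (0.99 ± 0.12) and the carboxypeptidase gene SCPEP1 (0.96 ± 0.22). GUSB, the beta-glucuronidase, was at 18.2, 17.1 and 18.7 CPM in lambs, against 42.7, 58.0 and 150 CPM in fetuses, and fell by 2.21 ± 0.44 (adjusted p = 0.00528). Its fetal libraries differed widely, and without fetal library 3 it fell by 1.48. Of 19 membrane proteins and transporters 6 were higher, 1 lower and 12 not called (median 0.18), with 44.7% of all tested genes called. ABCB9, a peptide transporter, rose by 1.82 ± 0.18 and LAPTM4A by 1.05 ± 0.13, while ABCD4, a transporter for vitamin B12, fell by 0.71 ± 0.16, a call lost with scaling by library totals.

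Of 20 genes for the targeting of lysosomal enzymes 2 were higher, 2 lower and 16 not called (median 0.09). That compares with 44.7% of all tested genes called in either direction. GNPTAB, whose product starts the mannose 6-phosphate tag of lysosomal enzymes, was at 65.5 CPM in lambs and 155 CPM in fetuses and fell by 1.24 ± 0.17 (adjusted p = 9.24e-04). The receptors for that tag were called in opposite directions, IGF2R at -0.64 ± 0.15 (adjusted p = 0.0101) and M6PR at 0.37 ± 0.10 (adjusted p = 0.0171). The IGF2R call was lost with scaling by library totals. M6PR lost its call without fetal library 1 (adjusted p = 0.0785) or 2 (0.0561), and the sorting gene VPS35, at 0.38 ± 0.11, without lamb library 3 (0.0728) or fetal library 1 (0.0965), 2 (0.0654) or 3 (0.0701).

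Among 10 tested transcription factor genes linked to lysosomal genes 3 were higher, 1 lower and 6 not called (median -0.32). The share called among all tested genes was 44.7%. MITF, of the same family as TFEB, rose to 58.8 CPM in lambs, against 18.3 CPM in fetuses (1.68 ± 0.19, adjusted p = 4.22e-04). MYC rose by 2.24 ± 0.22 and MAX by 1.29 ± 0.11, and BHLHE40 fell by 2.16 ± 0.32. TFEB and TFE3, the best known activators of lysosomal genes, were at -0.02 ± 0.14 (adjusted p = 0.917) and -0.32 ± 0.11 (adjusted p = 0.0513).

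**Figure D5:**
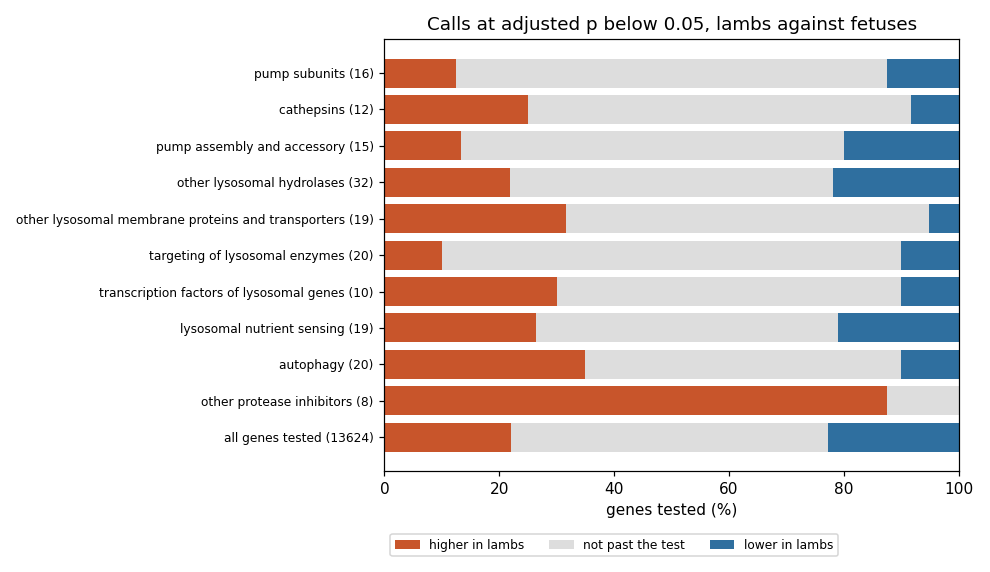
Share of tested genes in each list called higher in lambs (orange), not past the test (grey) or lower in lambs (blue), with the number tested in brackets. Among the lists shown, 4 of 16 pump subunits, 4 of 12 cathepsins and 4 of 20 targeting genes were called, against 44.7% of all genes, and 7 of 8 other protease inhibitors were called higher.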

How the data were processed

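Perirenal fat of 3 lambs and 3 fetuses was profiled by single-end 50 bp RNA sequencing. Per the series design text, quality-filtered reads were placed by the authors on the Ensembl models of Oar v3.1 with CLC Genomics Workbench 7.0; strand and the handling of multiple placements are not stated there. The deposited table gives read counts per gene and library, whole numbers, and the authors' RPKM as a mean per stage, used for description only. The 6 per-library RPKM columns of this table were not used, since a header among them is repeated, nor was the second, prefiltered table. Coordinates are those of the table.

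The counts were fitted with edgeR 4.0.16 under R 4.3.3 (filterByExpr, TMM, quasi-likelihood F test, no covariates), fitted on all genes, with SE as the size of the log2 difference over the root of F. Alternatives used DESeq2 1.42.0, limma 3.58.1, other scalings and filters, a replicate block and omission of each library. The exact interval for counts below the filter is Clopper-Pearson, from SciPy 1.17.1. Replicate numbers were not taken as pairs.

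Members and lists were chosen with earlier results of these data known. Values per library were given for called pump genes and cathepsins at 5 CPM or more in the higher stage, for other called members and for the most abundant of each class; from each list, up to 3 called genes in the commoner direction and 1 in the other, at 1 CPM or more. Other genes were named for their role or after their values were seen.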

Additional observations from a re-analysis of the deposited data

How the results depend on the processing

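Log2 differences of the 36 tested genes were recomputed in 14 alternative settings, giving 500 values; 414 kept direction and side of the threshold, 40 lost a call, 20 gained one and 26 changed sign, of which 0 were called both ways. With library totals 10 pump subunits were called higher and 0 lower, 5 cathepsins were called higher, and the medians were 0.59 (pump) and 0.60 (cathepsins), 0.13 and 0.14 above that of all genes. Then LAMP1 was at 0.45, ATP6V1C1 at 0.016, ATP6V1D at 0.42, ATP6V1E1 at 0.35, ATP6V1F at 0.31, CTSF at 0.14, CTSV at 0.29, CTSZ at 0.31, HEXA at 0.055, TFE3 at 0.16 and TFEB at 0.44. DESeq2 size factors left 1 pump subunit lower, and no filter beyond 1 count left 1 higher. Requiring 5 CPM in 3 libraries left 0 higher and 1 lower, with ATP6V0E2 below that filter and so not tested. In that setting 2 cathepsins were lower, ATP6V0E1 was at -0.017 and NEU1 at -0.018. The DESeq2 Wald test called 3 cathepsins lower (CTSF and CTSH passed at adjusted p = 0.0482 and 0.0426), and CTSC (0.0382) and PSAP (0.0437) higher; CTSF (0.0403) and TFE3 (0.0284) also passed with the 5 CPM filter, and limma-voom put CTSL at -0.086. Where not stated in the report, the cause was not tested.

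On leaving out 1 library, 0 to 1 pump subunits were higher and 1 to 2 lower, and 2 to 3 cathepsins were higher and 1 to 2 lower. The cathepsin median then lay between 0.0091 and 0.25 and the pump median between 0.03 and 0.18. Genes near 0 changed sign: LAMP1 (-0.13 to 0.050), ATP6V0B (-0.042 to 0.19), ATP6V0D1 (-0.11 to 0.28), ATP6V0E1 (-0.067 to 0.17), ATP6V1A (-0.092 to 0.12), ATP6V1D (-0.14 to 0.044), CTSL (-0.24 to 0.44), NEU1 (-0.015 to 0.044) and TFEB (-0.10 to 0.048).

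Animals of the stages share replicate numbers but no stated relation, and deviations of same-numbered libraries correlated at 0.00327, -0.116 and 0.0460. With the replicate block 0 pump subunits were higher and 1 lower, and 5353 genes were called in all, against 6095; ATP6V0A1, ATP6V1B2, ATP6V1C1, CTSK, LGMN, TCIRG1, M6PR, VPS35 and CD2 were not called in that fit, and CTSL was at -0.030. Depth limits the low members: a count of 0 allows up to 0.156 CPM in a lamb library and 0.221 CPM in a fetal library.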

Other observations

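Of 20 tested genes of autophagy, which delivers cell contents to lysosomes, 7 were higher, 2 lower and 11 not called (median log2 difference 0.24), while 44.7% of all tested genes were called, 22.0% higher and 22.7% lower. SQSTM1, the cargo receptor p62, was at 264 CPM in lambs and 107 CPM in fetuses and rose by 1.31 ± 0.14 (edgeR adjusted p = 3.65e-04). GABARAPL1, which coats autophagosomes, rose by 1.06 ± 0.13 and the conjugation factor gene ATG12 by 0.64 ± 0.10, while the cargo receptor gene NBR1 fell by 0.49 ± 0.12, a call lost with scaling by library totals (-0.01). Of 19 genes of nutrient sensing on the lysosomal surface 5 were higher, 4 lower and 10 not called (median -0.10). RHEB, the activator of mTORC1, rose by 1.04 ± 0.13, TSC1 by 0.85 ± 0.11 and FNIP1 by 0.82 ± 0.23, and LAMTOR2, of the scaffold that holds mTORC1 on lysosomes, fell by 0.81 ± 0.22. The FNIP1 call was lost without lamb library 1 (adjusted p = 0.0629) or 3 (0.0574) or fetal library 1 (0.0547) or 2 (0.0658), and that of LAMTOR2 without lamb library 1 (0.0566) or fetal library 2 (0.0615) and with library totals.

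Of 8 tested genes of other protease inhibitors 7 were higher in lambs and 0 lower (median 1.12), against 22.0% of all tested genes called higher. A2M, a plasma inhibitor of many proteases, was at 168 CPM in lambs and 18.9 CPM in fetuses and rose by 3.15 ± 0.31, TIMP2 rose by 2.76 ± 0.23 and TIMP3 by 2.28 ± 0.20. CST7, a cystatin of immune cells, was at 107, 82.9 and 162 CPM in lambs, against 63.0, 64.3 and 54.1 CPM in fetuses, and rose by 0.96 ± 0.24 (adjusted p = 0.0137). CSTA had 0 counts in every library, although the authors' mean RPKM lists it at 0.476 in lambs and 0.400 in fetuses.

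Markers of other cells moved as well, beside 22.0% of all tested genes called higher and 22.7% lower. Of 6 tested neutrophil markers 4 were lower and 0 higher (median -2.80), with S100A8 at -3.42 ± 0.54 and S100A9 at -2.83 ± 0.57. All 4 tested red cell markers were lower (median -4.00), among them HBBB at -5.04 ± 0.54 and SLC4A1 at -2.96 ± 0.37. Of 6 nerve markers 1 was higher, S100B at 3.35 ± 0.29, a gene that adipocytes also express, and 0 were lower (median -0.01). Of 12 adipocyte markers 6 were higher and 2 lower (median 0.36), with CIDEC at 2.58 ± 0.15, LPL at 1.44 ± 0.31 and UCP1 at -1.78 ± 0.27.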
